A study of Drosophila melanogaster with 4 samples.

Results

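The genes considered here encode heterochromatin proteins and partners of HP1a in Drosophila melanogaster. There were 30 of them, taken as a fixed list of symbols and looked up by exact symbol in the authors' deposited table of genes with Prospero binding peaks. That table names 1510 gene identifiers. Of the 30 genes, 2 were in the table and 28 were not. All 30 could be placed among the 13946 genes annotated as protein-coding on the arms of the Release 6 plus ISO1 MT assembly, which is used here only for names, gene lengths and neighbours.

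Heterochromatin is compact, gene-poor chromatin around centromeres and telomeres. Histone methyltransferases place methyl groups on lysine 9 of histone H3, and HP1a binds that mark through its chromodomain and recruits further proteins through its chromoshadow domain. Prospero is a homeodomain transcription factor that is passed to the differentiating daughter of a dividing neural stem cell. There it stops self-renewal and promotes differentiation. A peak at one of these genes would be Prospero on the DNA that encodes a heterochromatin protein, which is a different matter from Prospero meeting that protein on chromatin.

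The assay was targeted DamID in the brain of 3rd instar larvae. A bacterial adenine methylase, Dam, is joined to the protein of interest and marks GATC sites near the places that protein occupies. The series has 4 samples, namely Dam-Pros-FL (full-length Prospero), Dam-Pros-ΔN7 (a Prospero form known here by that name alone), Dam-HP1a, and Dam alone as the background. All of them, the Dam-alone control included, were expressed with GMR71C09-GAL4 and Gal80ts, so only cells in which that driver is active carry the methylase, although DNA came from the whole brain. The design text states 3 biological replicates of each. The table holds names and identifiers without peak heights, positions or values per replicate, so depth and replicate spread are unknown and nothing below is tested between samples. By its title, the table covers neural precursors and neurons of the larval brain. It does not state which Prospero form it describes. Markers of the labelled tissue cannot be checked in a list of bound genes.

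His2Av (FBgn0001197) and Kdm4B (FBgn0053182) were the 2 genes in the table. His2Av encodes the fly's H2A variant histone, which serves both transcription and the response to DNA breaks. Kdm4B encodes a demethylase of histone H3 that acts on methylated lysine 9, and so on the mark that HP1a reads. Each had 1 entry, a gene identifier, under the same symbol in both name columns. These 2 genes make up 6.67% of the 30. Among all protein-coding genes 7.76% were in the table, and among all annotated genes 8.45%, so the share in the heterochromatin group lay near the background.

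The HP1 family was not in the table. Its members here are the gene for HP1a itself, which has the older name Su(var)2-5 and is drawn in the plots under its current symbol, the somatic paralogues HP1b and HP1c, the germline paralogue rhi, which marks piRNA source loci, and HP6, a short relative. The proteins that bind HP1a were not in it either, namely HP4, HP5, Su(var)2-HP2, the zinc finger protein Su(var)3-7 and the ADD-domain protein ADD1. None of the H3 lysine 9 methylation genes was listed. They are the methyltransferases Su(var)3-9, egg and G9a, and wde, a cofactor of egg.

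Among the enzymes that remove histone marks, the other genes of the group were not in the table. Kdm4A, the paralogue of Kdm4B, was not, and neither were Su(var)3-3, which removes methyl groups from lysine 4 of H3, or the deacetylase gene HDAC1. Of the small RNA and SUMO genes, piwi, its silencing cofactor Panx, the siRNA effector AGO2 and the SUMO ligase gene Su(var)2-10 were not listed. The nuclear envelope genes Lam, a B-type lamin, and LBR, the lamin B receptor, were also outside the table. So were Parp, which encodes a poly(ADP-ribose) polymerase, the condensin II subunit gene CAP-D3, and Orc1, Orc2 and Orc6 of the origin recognition complex.

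Across the 8 functional groups, 1 of 4 demethylase and deacetylase genes was listed. In the group of the histone variant and Parp it was 1 of 2, and the other 6 groups had none. Among all protein-coding genes 7.76% were listed, and groups this small cannot show a difference from that share. By chromosome arm, 1 of 12 genes on 2R (Kdm4B) and 1 of 6 on 3R (His2Av) were in the table, with none of 5 on 2L, 4 on 3L and 3 on X. Between 6.29% (2L) and 9.09% (3L) of all protein-coding genes on these arms were listed.

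Lists of related genes, 8 in number with 56 genes in all, gave 1 more entry (1.79%, beside 7.76% of all protein-coding genes). It was Alh (FBgn0261238), the fly homologue of a leukaemia fusion partner, among 16 other heterochromatin and HP1-associated genes. Alh is 29590 bp long and belongs to the longest decile of protein-coding genes. No gene was listed among 3 other origin recognition subunits, 6 condensin subunits, 6 lamina genes, 3 Argonaute genes, 8 genes of transcriptional piRNA silencing, 10 other histone modifiers and 4 telomere capping genes.

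Gene families named by symbol were chosen for counting after the table had been seen. Of 5 genes named Kdm, Kdm4B was listed, and Kdm2, Kdm3, Kdm4A and Kdm5 were not. None of 10 deacetylase genes named HDAC or Sirt, 6 Orc genes, 6 Su(var) genes and 8 HP genes was in the table. All of these Orc and Su(var) genes were already counted above, as were several of the Kdm, deacetylase and HP genes. Their absences are therefore not further evidence. The listed share of all protein-coding genes was 7.76%, and families of 10 genes or fewer cannot show a difference from it. Of 115 histone genes, His2Av was the 1 listed. The annotation has 111 of the others in the repeated histone cluster, whose near-identical copies reads cannot be assigned to one by one. The histone genes outside that cluster number 4, and apart from His2Av they are His3.3A, His3.3B and His4r, which were not in the table.

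Gene length differed between the 2 listed genes. Kdm4B spans 21785 bp and falls in the longest decile of protein-coding genes, of which 26.2% were in the table. His2Av spans 2292 bp and falls in the 6th decile, of which 5.02% were in the table. The median length of the 30 genes was 4016 bp, against 2161 bp for all protein-coding genes and 6486 bp for the listed ones. The longest 2 deciles hold 8 of the 30 (26.7%, against 20% of all protein-coding genes), and of these Kdm4B was in the table while Parp, the longest at 125704 bp, was not. Protein-coding genes with lengths inside the range of the 30 (500 to 125704 bp) were listed at 7.75%. That range takes in most protein-coding genes, so this share does not match the 30 for length.

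**Figure D1:**
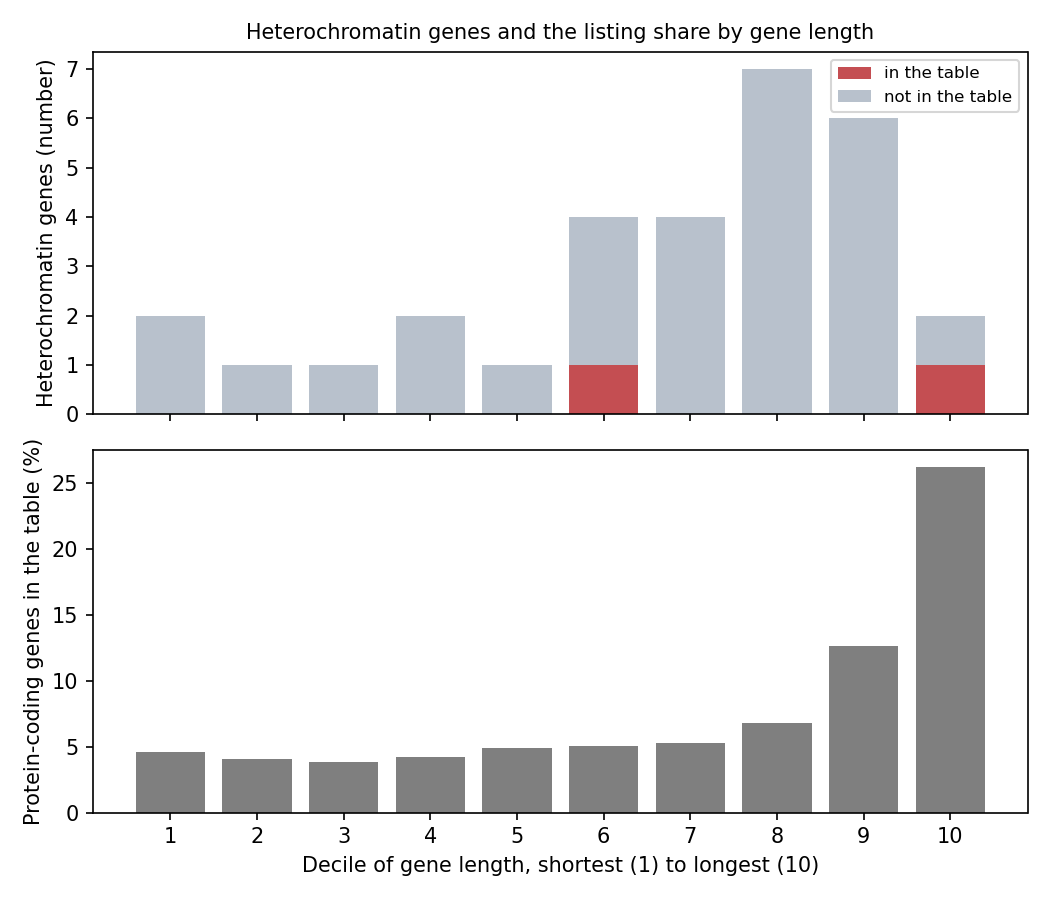
Heterochromatin genes by decile of gene length, counted in the upper panel with those in the Prospero peak table in red, and the percentage of all protein-coding genes in the table for the same deciles in the lower panel. The 2 listed genes, His2Av and Kdm4B, fall in deciles 6 and 10, and the listing share of all genes is 5.02% and 26.2% there.

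Kdm4B shares its DNA with other listed genes. In the annotation the span of seq (FBgn0028991), a zinc finger gene of axon and dendrite development, lies wholly (100%) inside that of Kdm4B, and its 13534 bp make up 62.1% of it. CG17724 (FBgn0033802) lies 96.7% inside the Kdm4B span. All 3 genes were in the authors' deposited table. Because the table gives no peak positions, binding at Kdm4B cannot be told apart from binding at seq or CG17724. Of the listed protein-coding genes, 32.3% overlapped or directly abutted another listed gene, against 3.39% of those not listed. The origin recognition gene Orc3 lies 4.39 kb from Kdm4B and was not in the table.

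His2Av sits in a dense stretch of listed genes. Within 10 kb of it were SPARC, Rb97D, Lerp, CG5500 and ro, which is 5 other listed genes. They encode, among others, an extracellular matrix glycoprotein (SPARC), an RNA-binding protein of the male germ line (Rb97D), a lysosomal enzyme receptor (Lerp) and a homeodomain factor of the eye (ro). At this distance 5 or more listed neighbours were found for 5.55% of listed protein-coding genes, whose median was 1. The gene next to His2Av on one side is SPARC, 17 bp away. Its entry carries the identifier of another fly species (FBgn0068526) and was matched through the authors' gene name, so it is the least certain of the 5. Without SPARC, His2Av would have fewer than 5 listed neighbours, and the nearest would be Rb97D at 2.91 kb. On the other side lies ball, a histone kinase gene, 121 bp away and not in the table. Without peak positions, binding at His2Av cannot be told apart from binding at SPARC or the other listed genes nearby.

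Both listed genes thus had listed neighbours within 10 kb, as did 76.2% of all listed protein-coding genes. Of the 28 genes not in the table, 6 had a listed gene within 10 kb (21.4%), close to the 21.8% of all protein-coding genes not in the table. Over all 30 it was 8 (26.7%), beside 26.0% of all protein-coding genes.

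The HP1a gene was the 1 gene of the HP1 family with listed genes nearby. CG8372, CG8360 and CG8353 were all in the table, and the nearest, CG8372, lay 0.916 kb away with 1 gene between. Of protein-coding genes not in the table, 2.63% had 3 or more listed genes within 10 kb. Orc1 also had 3, which were Drat at 0.401 kb, lncRNA:CR44209 and the cytochrome gene Cyt-b5. Orc1 and AGO2 were the 2 unlisted genes whose adjacent protein-coding gene was listed, and that gene was Drat for Orc1 and CrebA, a leucine zipper factor of secretory cells, for AGO2 at 0.898 kb.

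The remaining 3 genes with listed neighbours were separated from them by other genes. HP4 lay 2.89 kb from nmo, a kinase gene, with 2 genes between. ADD1 had RnrS, the small subunit of ribonucleotide reductase, at 5.42 kb and CG34231 at 8.29 kb. LBR had HmgD, a gene for an HMG-box chromatin protein, at 3.77 kb and CG30403 at 8.88 kb. Whether one peak would be assigned to several of these neighbours depends on how peaks were tied to genes, which none of the sources used here states. The gene table gives no strand, so it is not stated which ends of the genes face each other.

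**Figure D2:**
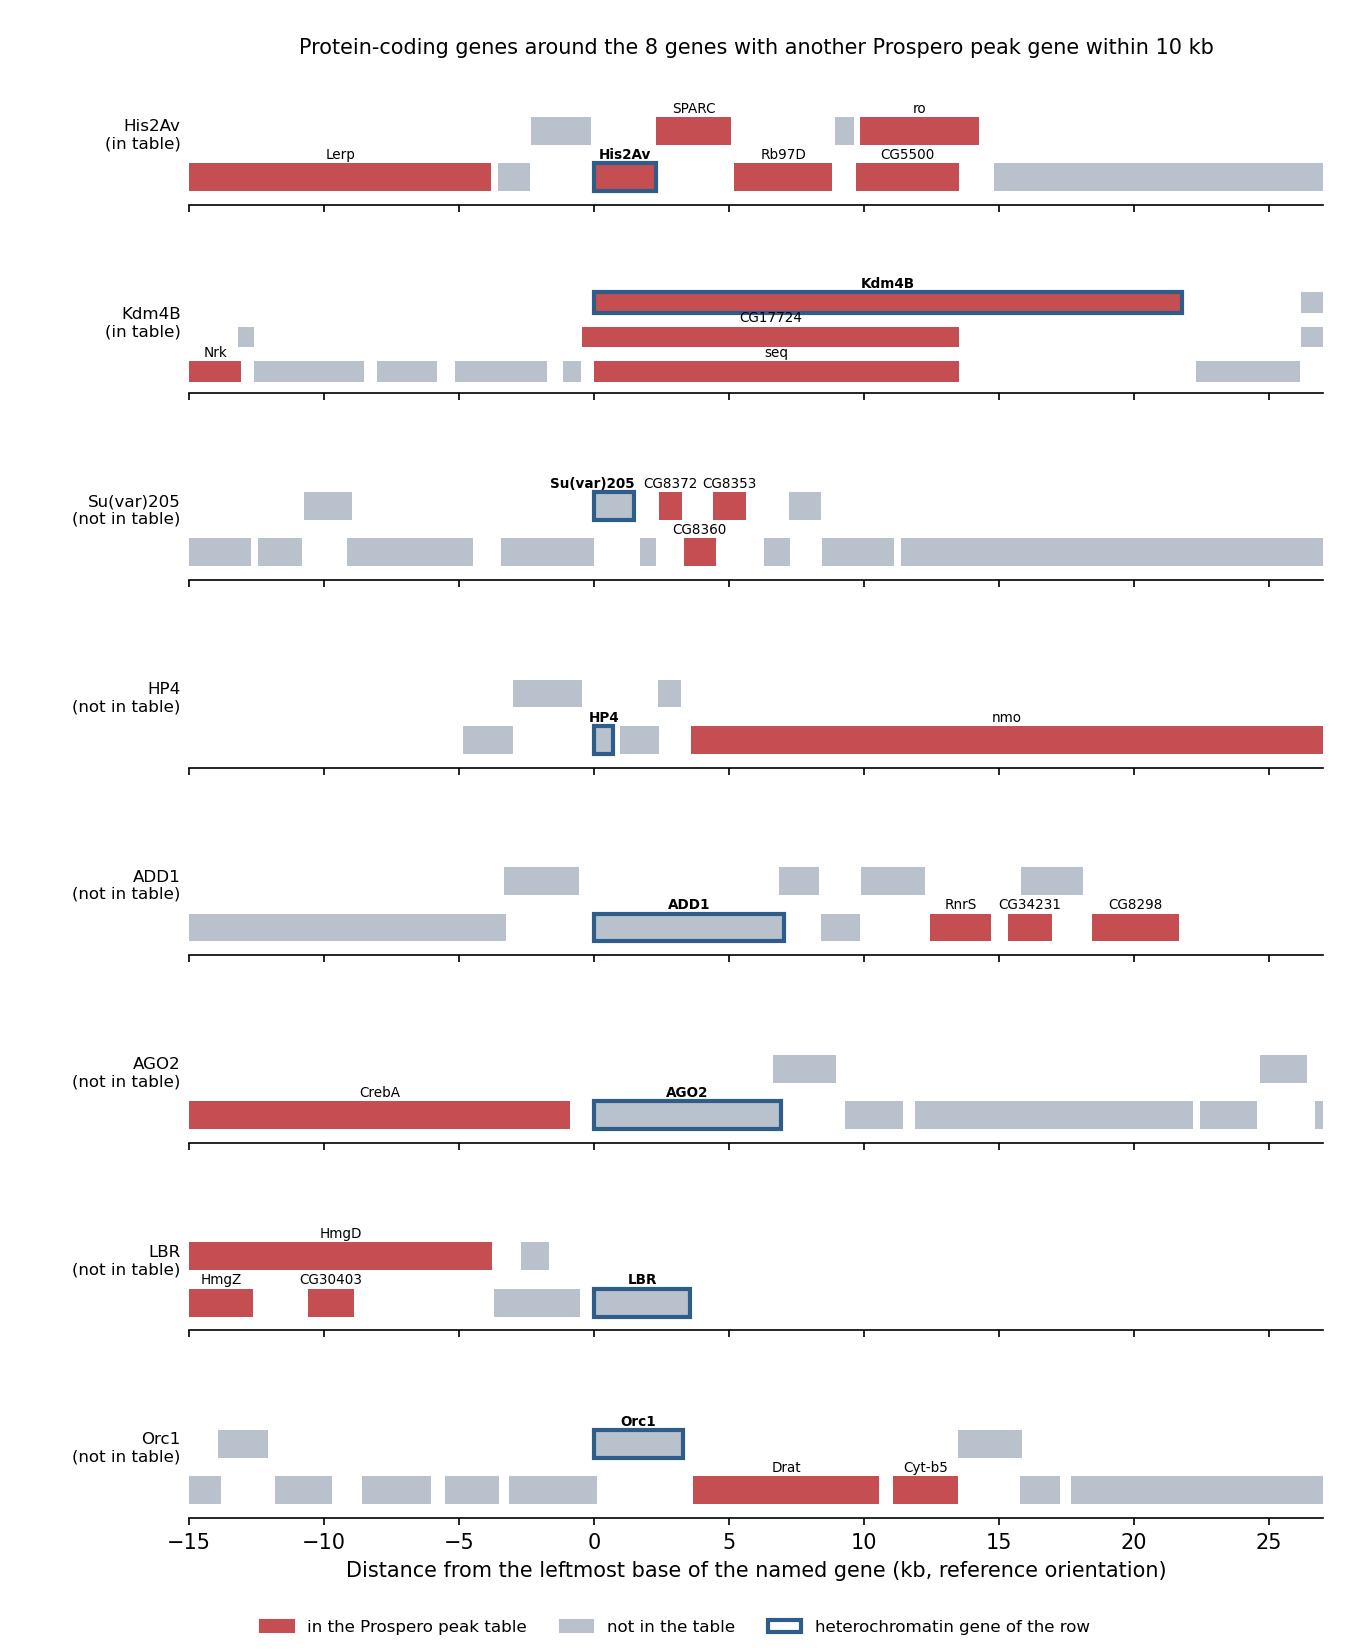
Protein-coding genes around the 8 heterochromatin genes with another listed gene within 10 kb, drawn to scale in kb from the leftmost base of the outlined gene, with genes in the Prospero peak table in red and others in grey. Kdm4B covers all of seq, and His2Av has 5 listed neighbours within 10 kb, counting the uncertain match SPARC. The HP1a gene is unlisted, with CG8372, CG8360 and CG8353 listed beside it.

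The other 22 genes lay more than 10 kb from any listed gene. For the H3 lysine 9 methylation genes the distance to the nearest was 29.4 kb (egg), 61.9 kb (G9a), 79.3 kb (wde) and 145 kb (Su(var)3-9). None of these 4 thus had a listed gene within 10 kb, and most unlisted protein-coding genes had none either (21.8% had one). Kdm4A came closest among the 22, at 17.1 kb. In the HP1 family the distances other than that of the HP1a gene ran from 21.0 kb for HP1c to 224 kb for HP6. piwi lay 223 kb and Panx 168 kb from the nearest listed gene, while Parp was farthest of all at 625 kb. The median over the 30 genes was 47.3 kb, against 36.9 kb over all protein-coding genes. A distance above 100 kb was found for 8 of the 30 genes, and for 23.4% of all protein-coding genes.

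**Figure D3:**
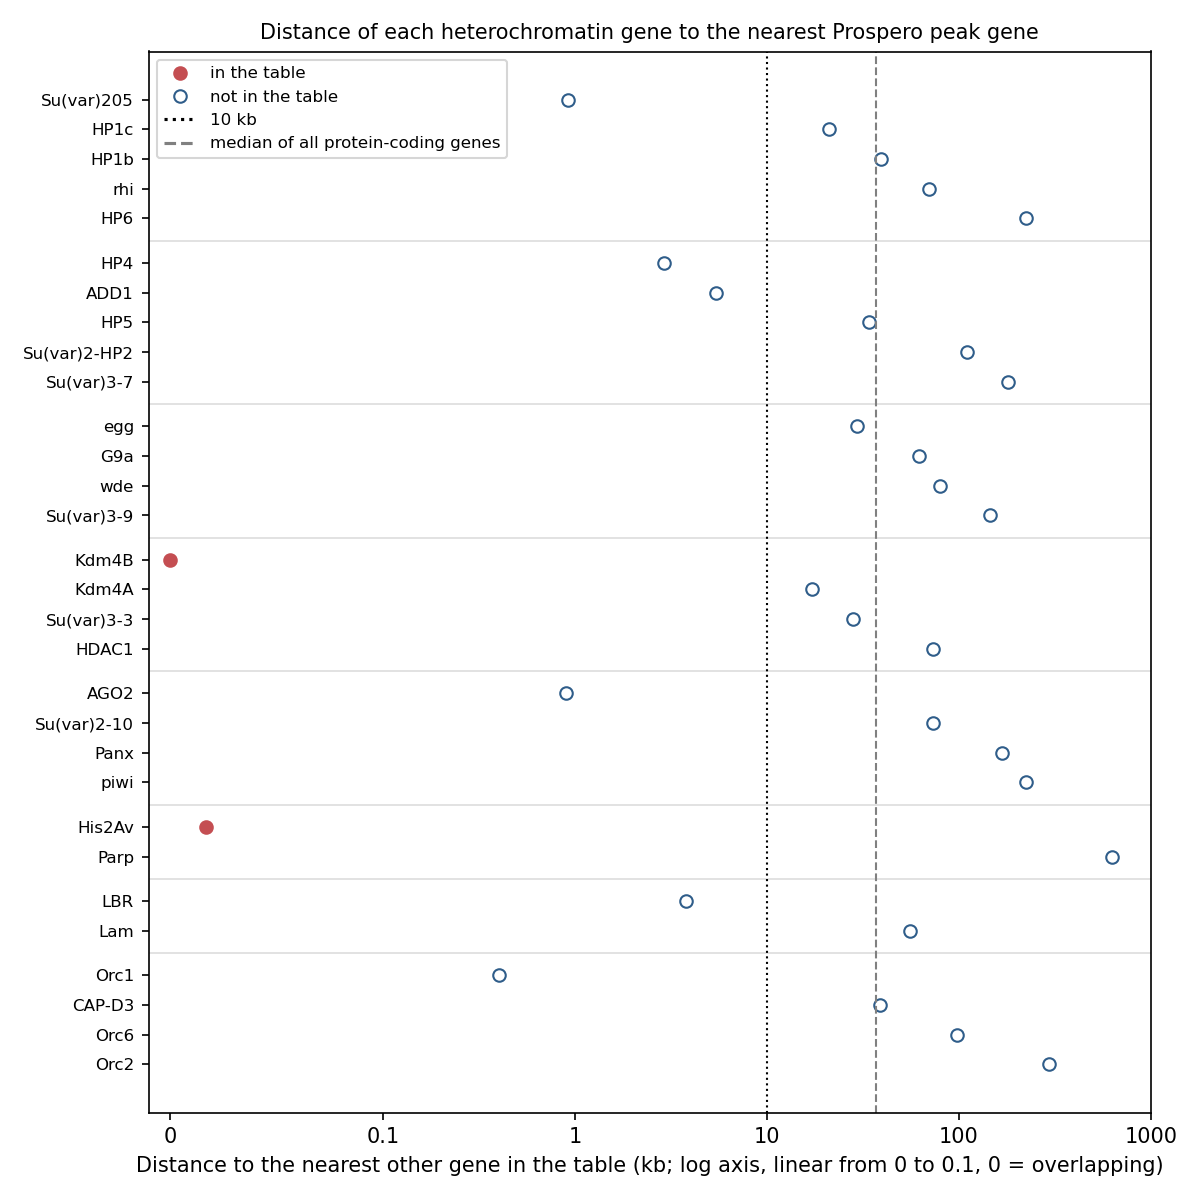
Distance in kb (log axis, linear below 0.1) of each of the 30 genes to the nearest other gene in the Prospero peak table, grouped by function, with filled points for genes in the table. Kdm4B at 0 and His2Av at 0.017 kb are the 2 nearest. The His2Av distance is to SPARC, an uncertain match, and its next listed gene, Rb97D, lies 2.91 kb away. The dashed line is the median of all protein-coding genes (36.9 kb), and the dotted line is 10 kb.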

How the data were processed

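Per the labels' protocols, brain DNA was cut with DpnI, ligated to adaptors, cut with DpnII, amplified, sonicated, freed of adaptors with AlwI and sequenced. The authors deposited 1 table of gene names, FlyBase identifiers and symbols with 1584 entries, and it holds no numeric column. The sources used here name no aligner, peak caller, build, threshold or rule that ties peaks to genes, and sequencing depth is unknown. A longer assignment distance would list more neighbours of each peak. Per-fusion profiles were not analysed here, and the table may have been received without some of its entries.

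The 30 symbols were looked up exactly in both name columns. Of 1512 gene entries, 1507 (99.7%) were matched by current or older symbol to 1504 genes of a RefSeq gene table (Release 6 plus ISO1 MT). Of the 30, 28 carry the same symbol there, and Parp and CAP-D3 have newer ones. Distances are gaps between gene spans, with overlapping or directly abutting spans at 0. The members, lists and counts were chosen with earlier results of these data known, so counts are set beside those of all genes without a test. All 30 genes are named. Of the further lists, genes found are named and the others counted. The lookup and distances were tested on simulated data. Python 3.11.15, pandas 2.3.3, numpy 2.4.6 and matplotlib 3.10.9 were used.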

Additional observations from a re-analysis of the deposited data

How the results depend on the processing

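The count of 2 listed heterochromatin genes was the same in the symbol column alone, in the gene name column alone and with gene identifiers only. Looked up with older names and without regard to capitals, the count was 3. The addition, AGO2, comes from an older name that differs only in capitals from ago, the symbol of another gene that is in the table. With all annotated genes as the background the listed share was 8.45%. The number of heterochromatin genes with another listed gene nearby was 7 within 5 kb (19.1% of all protein-coding genes), 9 within 20 kb (36.7%), and 8 within 10 kb of a listed protein-coding gene (24.3%). The planned search of promoter windows for a Prospero consensus and for GATC sites was not run, because no sequence was used here. No paired analysis was possible because the table has no columns for samples or replicates. The list gives no peak strength, so a gene just under the authors' threshold cannot be told from one with no binding.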
